A study of Homo sapiens with 6 samples.

Results

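The genes described here are the human aminoacyl-tRNA synthetases of the cytosol and of the mitochondrion, with the 3 scaffold genes of the multisynthetase complex. They were found by symbol: an amino acid letter followed by ARS, ARS1 or ARS2, EPRS1, FARSA, FARSB, AIMP1, AIMP2 and EEF1E1 in GENCODE 29. The rule gave 40 of the 25969 genes in the files, namely 20 cytosolic enzymes, 17 mitochondrial enzymes (suffix 2) and 3 scaffold genes, and all 40 passed the filter on low values (a mean of at least 1 over the 6 libraries). RNA was sequenced from cells labelled LNCaP, a prostate cancer line: 3 libraries carry the label VIM-AS1 overexpressed and received a vector for that RNA, and 3 control libraries, labelled WT, received the plasmid pcDNA3.1. VIM-AS1 is a noncoding transcript from the strand opposite to VIM, the vimentin gene, and the study asks how its overexpression changes gene expression. The labels do not state if the libraries are separate cultures. The p-values thus describe the spread among these 6 libraries, which may be technical, and in bulk RNA fewer cells of a type and less RNA per cell cannot be told apart.

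An aminoacyl-tRNA synthetase joins 1 amino acid to the tRNAs that read its codons, and so loads the tRNAs that the ribosome uses. For most amino acids cells keep separate enzymes for the cytosol and for the mitochondrion, both encoded in the nucleus. The mitochondrial enzymes charge the tRNAs used to translate the few proteins of the mitochondrial genome. Genes that serve both compartments, such as KARS1 for lysine, are counted as cytosolic here. Several cytosolic enzymes are bound with the scaffold proteins AIMP1, AIMP2 and EEF1E1 in the multisynthetase complex. Many cytosolic synthetase genes are known targets of ATF4, the transcription factor made when amino acids run short, which binds C/EBP-ATF response elements with the core letters TGATGCAA.

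The letters of such an element stood in the promoters of several cytosolic enzymes and are shown first, because these genes are set side by side below. RefSeq promoter windows (GRCh38.p14, 250 bases before to 50 after a gene's start) were at hand for 33 of the 40 genes (45 windows), 16 cytosolic, 14 mitochondrial and 3 scaffold. TGATGCAA or its reverse complement TTGCATCA was found in 6 of the 16 cytosolic genes, in 0 of the 14 mitochondrial genes and in 0 of the 3 scaffold genes, against 1.08% of the 27305 genes in the table. With 1 free letter, as TGATGNAA on either strand, a wider search that contains the exact one, the counts were 7 of 16, 1 of 14 and 0 of 3, against 4.46% of all genes in the table. A match is a description of the letters, not a binding site. The 60 bases around each match are given 5′ to 3′ on the gene's strand with the 8 letters in capitals. They lie at IARS1 chr9:92293677-92293736 on the minus strand, AARS1 chr16:70289660-70289719 on the minus strand, MARS1 chr12:57488038-57488097 on the plus strand, NARS1 chr18:57621789-57621848 on the minus strand, TARS1 chr5:33440941-33441000 on the plus strand and CARS1 chr11:3057392-3057451 on the minus strand.
IARS1: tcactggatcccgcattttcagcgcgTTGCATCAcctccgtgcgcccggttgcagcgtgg
AARS1: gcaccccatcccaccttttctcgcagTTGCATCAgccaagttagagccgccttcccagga
MARS1: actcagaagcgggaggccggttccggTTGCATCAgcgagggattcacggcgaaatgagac
NARS1: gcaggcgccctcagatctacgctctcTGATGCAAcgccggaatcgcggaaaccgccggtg
TARS1: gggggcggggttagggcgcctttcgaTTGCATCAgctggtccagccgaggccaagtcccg
CARS1: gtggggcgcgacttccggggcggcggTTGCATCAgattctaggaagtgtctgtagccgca

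LARS2 and EARS2, the mitochondrial enzymes for leucine and glutamate, had the highest fold changes of the 40 genes. Their whole RefSeq windows are shown because the results below turn on them: LARS2 at chr3:45388326-45388625 on the plus strand and EARS2 at chr16:23557301-23557600 on the minus strand. Capitals mark CACGTG, the E-box, a sequence that reads the same on both strands and that is not among the letters of the LARS2 window. Over the 45 windows of the 33 genes (some genes have several starts) it was present in 1 of 16 cytosolic, 3 of 14 mitochondrial and 1 of 3 scaffold genes, against 8.78% of genes in the table.
LARS2: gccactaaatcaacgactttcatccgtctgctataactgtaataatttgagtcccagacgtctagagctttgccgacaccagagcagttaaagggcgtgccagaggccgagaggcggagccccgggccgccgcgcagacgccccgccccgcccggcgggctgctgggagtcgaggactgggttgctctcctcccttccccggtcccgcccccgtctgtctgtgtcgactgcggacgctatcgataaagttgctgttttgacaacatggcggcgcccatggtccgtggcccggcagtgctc
EARS2: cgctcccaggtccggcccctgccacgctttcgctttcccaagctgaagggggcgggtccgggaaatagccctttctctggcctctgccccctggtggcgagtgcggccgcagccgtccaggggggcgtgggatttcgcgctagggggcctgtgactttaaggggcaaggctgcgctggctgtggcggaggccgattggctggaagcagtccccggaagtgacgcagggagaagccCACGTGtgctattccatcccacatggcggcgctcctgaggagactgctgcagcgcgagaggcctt

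HARS1 and HARS2, the cytosolic and mitochondrial histidine enzymes, start 85 bp apart on opposite strands. Their windows share 184 bases, chr5:140691321-140691504, shown here on the plus strand, the strand of HARS2.
HARS1 and HARS2: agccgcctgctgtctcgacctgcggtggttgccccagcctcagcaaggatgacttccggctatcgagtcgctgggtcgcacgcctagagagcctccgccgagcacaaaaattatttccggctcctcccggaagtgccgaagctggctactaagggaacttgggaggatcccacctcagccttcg

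The overexpressed RNA was checked first. VIM-AS1 had 2197, 2019 and 2763 normalized reads in the overexpression libraries, against 8.63, 1.22 and 5.53 in the control libraries. The libraries held 14762893 to 19889745 reads. Normalized reads are gene counts divided by 1 factor per library, as deposited. In both groups the third library differed from the others. Its deviation from the group mean was correlated between the groups over 13175 genes (Pearson r = 0.84 across genes, which are not independent replicates), and over 13168 genes it followed GC content (Spearman rho -0.82 in the VIM-AS1 group and -0.79 in the control group). The label LNCaP was set against 10 luminal prostate markers, of which 8 were in the files. KLK3, the gene of prostate-specific antigen, had 0 normalized reads in all 3 overexpression libraries and 1.92, 0 and 0 in the controls, and FOLH1 was at 0 in all 3 overexpression libraries and at 3.84, 2.44 and 0 in the controls. The luminal list summed to 68149 to 121703 normalized reads in the overexpression libraries, against 75816 to 138747 in the controls, with 99.2% from the keratins KRT8 and KRT18. The cells are therefore called by their label only. Markers of basal epithelium summed to 4.90 to 17.9 in the overexpression libraries, against 24.9 to 40.3 in the controls, and those of fibroblasts to 1795 to 2563 with VIM-AS1 and 2876 to 3721 in the controls. Endothelial markers summed to 64.5 to 108.8 with VIM-AS1 and 33.2 to 64.7 in the controls, and the 1 of 4 blood markers in the files stood at 0 with VIM-AS1 and 0 to 3.84 in the controls. Of 11 tested genes on these 4 lists, TP63, COL1A1, DCN and PDGFRB fell and THY1 and VWF rose in the fit described next. Over all tested genes 11.5% rose and 7.94% fell in that fit. THY1 (at most 16.9 normalized reads in any library) and TP63 (at most 38.7) were low. The part of these markers in the results was not tested.

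Several synthetase genes of both compartments rose with VIM-AS1 overexpression, and none fell. In limma without a further term none of the 40 genes passed at an adjusted p of 0.05 (lowest adjusted p = 0.0897, for LARS2), and 7 of the 40 had an unadjusted p under 0.05, against 13.6% of all tested genes and 14.5% of those within the 40 genes' range of mean, a share near the background. edgeR on the recovered reads likewise called none of the 40 (0.0191% of all tested genes), and DESeq2 called LARS2, EARS2 and WARS1 (1.69% of all tested genes). Over all 20927 tested genes that limma fit called 5, or 0.0239%. In limma with a term for the third libraries 17 of the 40 genes rose: 9 of 20 cytosolic enzymes, 7 of 17 mitochondrial enzymes and 1 of 3 scaffold genes. Over all tested genes 11.5% were called higher and 7.94% lower in that fit, 19.4% in either direction, and among the 10496 genes whose mean lay within the range of the 40 genes 21.2% were called higher and 9.8% lower.

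The words "rose" and "fell" are used for genes past the 0.05 threshold of this limma fit with the term, which also gives the SE values. The term was chosen from these same data, so its p-values may be too small. The fold changes are the same with and without it. They are on the log2(value + 1) scale, VIM-AS1 overexpression over control. Without either of the libraries numbered 3, which leaves 2 libraries against 2, 0 cytosolic genes and 3 mitochondrial genes (LARS2, EARS2 and AARS2) were called. Over all tested genes 1.34% were then called without VIM-AS1 replicate 3 and 1.13% without control replicate 3. The fold changes of the 17 genes differed by -0.08 to 0.05 on the log2 scale from those over all 6 libraries. Without VIM-AS1 replicate 2 there were 5 cytosolic and 4 mitochondrial calls (11.7% of all tested genes). Without VIM-AS1 replicate 1 there were 7 cytosolic and 4 mitochondrial calls (12.7% of all tested genes). With the replicate number as a block, 25 of the 40 genes passed, 23 higher and 2 lower, while 15.8% of all tested genes were called higher and 10.8% lower. Among the 8 genes called there but not with the third-library term, SARS1, RARS1, NARS1, HARS2 and CARS2 had positive values. CARS1 and PARS2, also among them, had negative values.

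**Figure D1:**
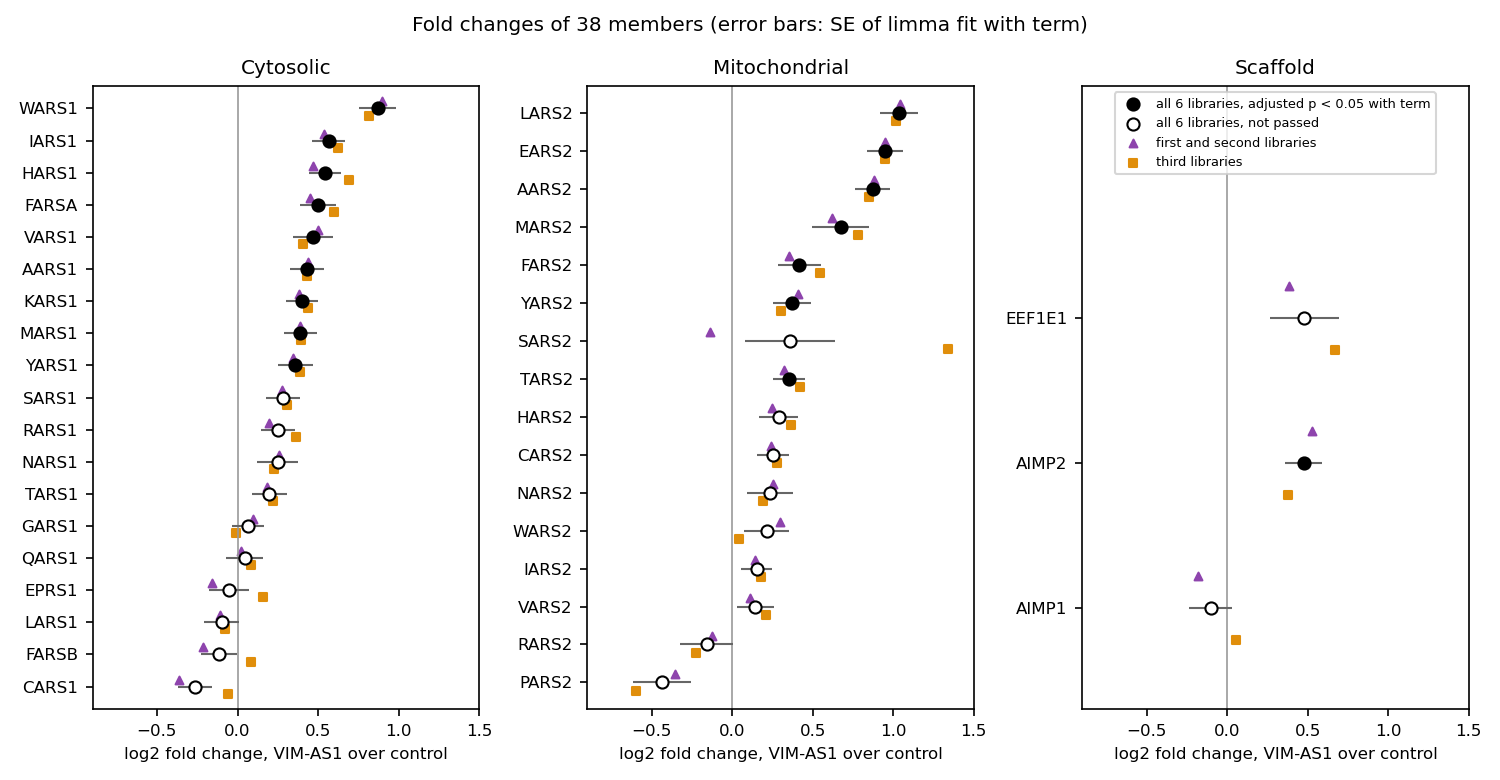
Log2 fold changes of 38 of the 40 genes (x axis, VIM-AS1 overexpression over control, log2 of normalized reads + 1) by class, with genes ordered down the y axis. Circles are the values over all 6 libraries with the SE of the limma fit with the third-library term, filled where the adjusted p was under 0.05. Triangles are the first and second libraries alone and squares the third libraries alone. They stood on opposite sides of 0 for SARS2, at -0.14 and 1.34, and with smaller gaps for EPRS1, FARSB, AIMP1 and GARS1.

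Among the mitochondrial enzymes 15 of 17 had positive fold changes, with a median log2 fold change of 0.32, against -0.02 over all tested genes and 0.10 over genes within the same range of mean. LARS2 (ENSG00000011376, chr3:45388506-45549421), which charges mitochondrial leucine tRNA, had 1225, 1243 and 1053 normalized reads in the overexpression libraries, against 518, 694 and 519 in the controls. The groups did not overlap, and the third library was the lowest of the overexpression group. The mean was 1174 ± 105 with VIM-AS1 and 577 ± 101 in the control (SD, n = 3 each), a log2 fold change of 1.03 ± 0.12 (SE; limma with the term, adjusted p = 7.87e-06). In the same-numbered libraries the log2 differences were 1.24, 0.84 and 1.02.

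EARS2 (ENSG00000103356, chr16:23522014-23557731), the mitochondrial glutamate enzyme, also loads glutamate onto the mitochondrial glutamine tRNA, which is then amidated. It had 1434, 1538 and 1146 normalized reads in the overexpression libraries, against 678, 872 and 592 in the controls. Each overexpression library exceeded each control, and the third was the lowest of both groups. The log2 fold change was 0.95 ± 0.11 (SE; limma with the term, adjusted p = 1.23e-05). AARS2 (ENSG00000124608, chr6:44299654-44313326), the mitochondrial alanine enzyme, had 879.7, 981 and 619 normalized reads with VIM-AS1 and 529, 479 and 344 in the controls. The groups again did not overlap, and the log2 fold change was 0.87 ± 0.11 (SE; limma with the term, adjusted p = 2.55e-05). LARS2, EARS2 and AARS2 were the members whose calls stood whichever library was left out, with adjusted p-values of at most 0.0433 over those and all other alternatives tried on this fit.

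MARS2 (ENSG00000247626), the mitochondrial methionine enzyme, had 122, 119 and 164 normalized reads in the overexpression libraries, against 76.7, 79.4 and 94.8 in the controls, with no overlap (log2 fold change 0.67 ± 0.18 SE, limma with the term, adjusted p = 0.011). YARS2, for tyrosine, had 434, 452 and 497 with VIM-AS1 and 344, 324 and 404 in the controls, also without overlap (0.37 ± 0.12 SE, limma adjusted p = 0.0304). The remaining mitochondrial enzymes that rose, with groups that overlapped, were FARS2 for phenylalanine (496 ± 92.9 with VIM-AS1 and 376 ± 102 in the control, normalized reads, log2 fold change 0.42) and TARS2 for threonine (1736 ± 339.7 with VIM-AS1 and 1368 ± 318 in the control, 0.35; SD, n = 3 each). FARS2 and YARS2 were the 2 members that lost the call in more than 1 alternative other than leaving out libraries: DESeq2 and library size scaling for both, and a pseudocount of 0.1 and the GC and length correction for FARS2.

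The 10 mitochondrial enzymes that did not pass had log2 fold changes from -0.44 to 0.36. Among them HARS2 had 570.0, 552 and 601 normalized reads with VIM-AS1 and 538, 414 and 466 in the controls, groups that did not overlap (0.29, limma with the term, adjusted p = 0.11). CARS2 for cysteine (0.25), NARS2 for asparagine (0.23), WARS2 for tryptophan (0.21), IARS2 for isoleucine (0.15) and VARS2 for valine (0.14) were positive. RARS2 for arginine (-0.16) and PARS2 for proline (-0.44) were negative. PARS2 had 122, 145 and 75.7 normalized reads in the overexpression libraries, against 145, 200.4 and 115 in the controls, with overlap. SARS2, for serine, had the lowest level of the 40 genes per kilobase of exon. Its normalized reads were 80.1, 62.7 and 65.5 with VIM-AS1 and 87.3, 69.6 and 25.3 in the controls. Its log2 fold change was 0.36 over all libraries and -0.14 without the third libraries, and 46.2% of its exon bases are also exon of another annotated gene on the same strand, so its counts are uncertain.

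Reads from the mitochondrial genome, whose messages these enzymes help to translate, made up a smaller share of each overexpression library. The 37 genes with symbols starting in MT- held 7.06%, 6.86% and 5.57% of the overexpression libraries' reads, against 8.73%, 14.3% and 11.8% in the controls. The groups did not overlap (p = 0.1 in a two-sided exact permutation test, which cannot go lower with 3 against 3). The part of this share in the results on mitochondrial enzymes was not tested. Summed over the 17 mitochondrial enzymes, the deposited values were 13201, 13959 and 12300 in the overexpression libraries, against 10058, 10685 and 9365 in the controls. Those of the 20 cytosolic enzymes were 62929, 66689 and 55970 with VIM-AS1 and 48323, 55439 and 44184 in the controls. Neither sum overlapped between the groups. The mitochondrial sum was 21.0%, 20.9% and 21.98% of the cytosolic sum with VIM-AS1 and 20.8%, 19.3% and 21.2% in the controls, values that did overlap.

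**Figure D2:**
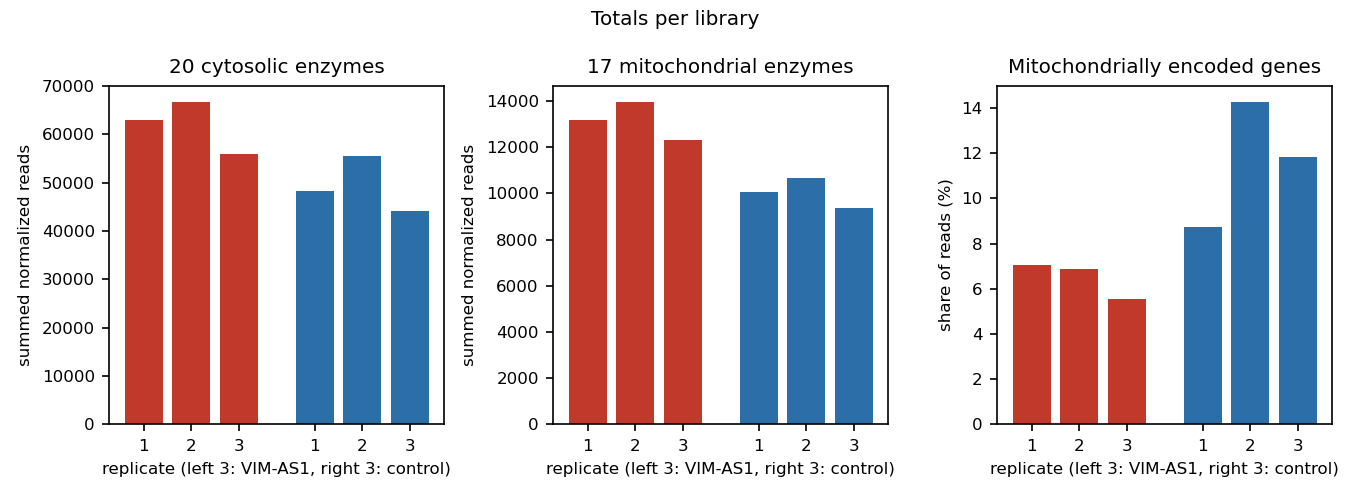
Totals in each library, with the 3 overexpression libraries at the left (red) and the 3 control libraries at the right (blue) of every panel. Bars give summed normalized reads of the 20 cytosolic and the 17 mitochondrial enzymes and the share of reads from mitochondrially encoded genes in percent. Both sums were higher in every overexpression library, closely so for the cytosolic sum of VIM-AS1 replicate 3 (55970) against control replicate 2 (55439), and the share of mitochondrially encoded reads was lower.

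Among the cytosolic enzymes 15 of 20 had positive fold changes, with a median of 0.27. WARS1 (ENSG00000140105, chr14:100333788-100376805), the tryptophan enzyme, which is also known as an interferon-induced gene, had 4024, 4628 and 3263 normalized reads in the overexpression libraries, against 2005, 2666 and 1856 in the controls. Every overexpression library lay above every control. Its log2 fold change was 0.87 ± 0.12 (SE; limma with the term, adjusted p = 3.8e-05, and 0.0505 in the first and second libraries alone). HARS1 had 2211, 2076 and 1744 with VIM-AS1 and 1553, 1544 and 1077 in the controls, without overlap, a log2 fold change of 0.54 ± 0.10 (SE; limma with the term, adjusted p = 0.000801). Its neighbour HARS2, described above, differed by 0.29 on the same scale, and the ratio of HARS2 to HARS1 did not separate the groups (0.258, 0.266 and 0.344 with VIM-AS1 against 0.347, 0.268 and 0.433 in the controls). Because 11.7% of HARS2 exon bases are also exon of HARS1 on the other strand, and no source used here states how strand was handled in counting, reads from that stretch cannot be assigned with certainty.

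FARSA, the catalytic subunit of the phenylalanine enzyme, and FARSB, its partner subunit, had fold changes of opposite sign. FARSA rose (6354 ± 1878 with VIM-AS1 against 4555 ± 1575 normalized reads in the control, SD, n = 3 each, log2 fold change 0.50 ± 0.11 SE, limma with the term, adjusted p = 0.00302). FARSB had 858, 721 and 916 in the overexpression libraries, against 935, 888 and 865 in the controls, or a log2 fold change of -0.11 ± 0.11 (SE; adjusted p = 0.535). Whether the 2 genes differ was not tested. The other enzymes outside the multisynthetase complex that rose were VARS1 for valine (9229 ± 2538 with VIM-AS1 and 6677 ± 1989 in the control, log2 fold change 0.47), AARS1 for alanine (5632 ± 918 with VIM-AS1 and 4176 ± 752 in the control, 0.43) and YARS1 for tyrosine (4661 ± 897 with VIM-AS1 and 3646 ± 819 in the control, 0.36). In these 3 genes and in FARSA the groups overlapped, with the third library lowest in both groups. SARS1 (0.29), NARS1 (0.25), TARS1 (0.20), GARS1 (0.06) and CARS1 (-0.26) did not pass. In all, 6 of the 12 cytosolic enzymes outside the complex rose, with a median of 0.32. Over all tested genes 11.5% rose, and 21.2% within the synthetases' range of mean.

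Of the 8 enzymes known to reside in the multisynthetase complex 3 rose, with a median of 0.15. The background shares were again 11.5% of all tested genes and 21.2% within the synthetases' range of mean. IARS1 (ENSG00000196305, chr9:92210207-92293756), for isoleucine, had 1684, 1779 and 2563 normalized reads with VIM-AS1 and 1113, 1275 and 1665 in the controls, without overlap and with the third library highest in both groups (log2 fold change 0.57 ± 0.10 SE, limma with the term, adjusted p = 0.000589). KARS1, the lysine enzyme of both compartments, had 4006, 3715 and 4548 in the overexpression libraries, against 2841, 3090 and 3354 in the controls, also without overlap (0.40 ± 0.10 SE, adjusted p = 0.00798). MARS1, for methionine, had 2169, 2422 and 1985 with VIM-AS1 and 1661, 1846 and 1510 in the controls (0.39 ± 0.10 SE, adjusted p = 0.00969). Its groups did not overlap. RARS1 for arginine (0.25), QARS1 for glutamine (0.04), EPRS1 for glutamate and proline (-0.05) and LARS1 for leucine (-0.10) did not pass. The grouping by complex was made with the values known. Whether the enzymes inside and outside the complex differ was not tested.

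Of the scaffold genes, 1 of 3 rose, beside 11.5% of all tested genes and 21.2% within the synthetases' range of mean. AIMP2 had 1616, 1709 and 1135 normalized reads with VIM-AS1 and 1001, 1330 and 874 in the controls. It rose by 0.48 ± 0.11 on the log2 scale (SE; limma with the term, adjusted p = 0.00568), although the groups overlapped at VIM-AS1 replicate 3. An opposite-strand gene, EIF2AK1, shares 28.9% of the exon bases of AIMP2. EEF1E1 had 96.9, 79.4 and 150.4 in the overexpression libraries, against 83.5, 53.8 and 94.0 in the controls, or a log2 fold change of 0.48 ± 0.21 (SE; limma with the term, adjusted p = 0.128). AIMP1 had 244, 229 and 485 with VIM-AS1 and 303, 237 and 468 in the controls, or a log2 fold change of -0.10 ± 0.13 (SE; adjusted p = 0.662). Both overlapped between groups and were highest in the third libraries. On the same strand, EEF1E1-BLOC1S5 shares 18.65% of the exon bases of EEF1E1.

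**Figure D3:**
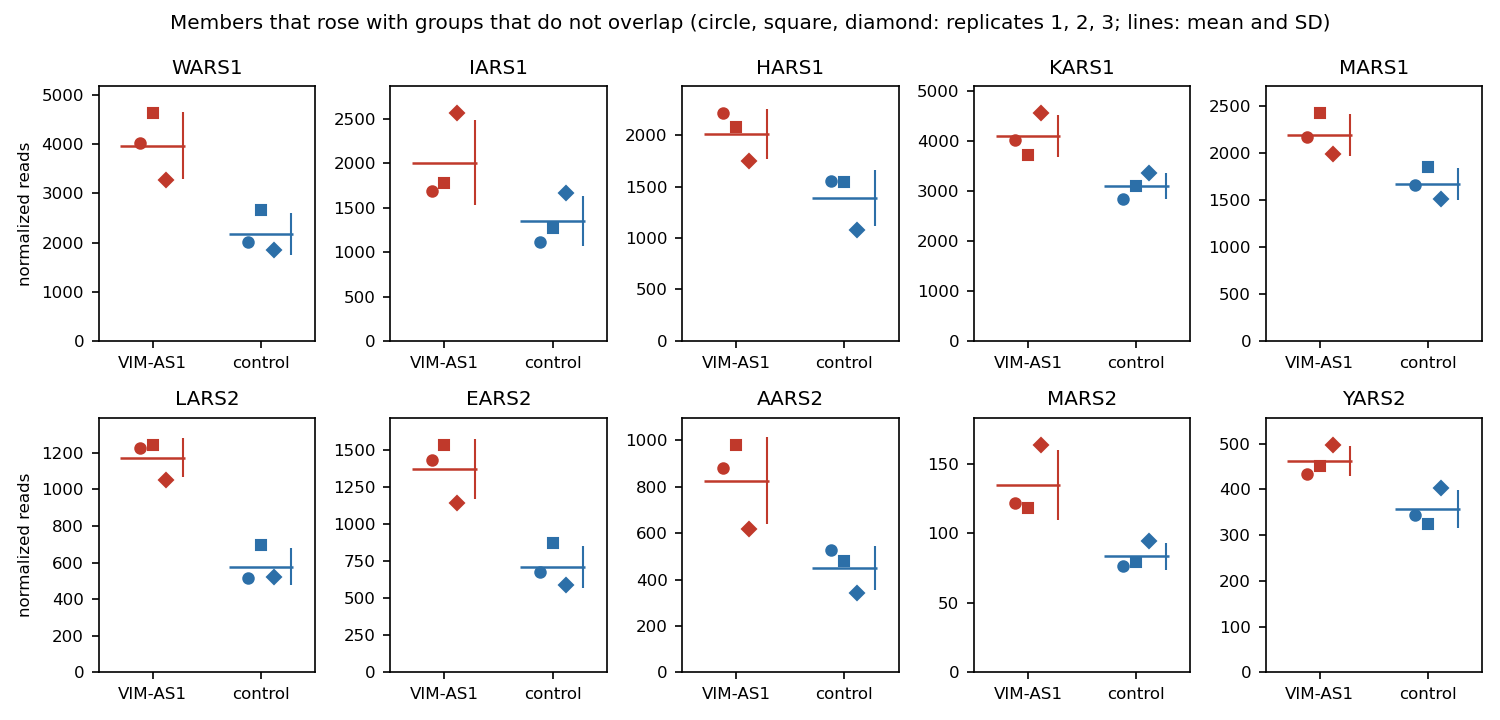
Normalized reads (y axis, from 0) in every library for the 10 genes that rose and whose groups did not overlap, cytosolic enzymes in the upper row and mitochondrial enzymes in the lower. Circles, squares and diamonds are replicates 1, 2 and 3, horizontal lines the means and vertical lines the SD, with the overexpression group at the left. Overlap was also absent for HARS2, which did not pass, and for CARS1, whose overexpression libraries all lay below the controls; over all tested genes 9.5% lay wholly above and 10.3% wholly below.

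Enzymes for the same amino acid in the cytosol and in the mitochondrion were then set side by side in 16 pairs, with EPRS1 used for both glutamate and proline. Pairs were matched by symbol, so FARS2, whose cytosolic counterparts are FARSA and FARSB, was left out. The mitochondrial fold change was the higher in 9 pairs and the lower in 7, with a median difference of 0.04 on the log2 scale. The largest of the 16 differences was in the leucine pair, where LARS2 stood at 1.03 and LARS1 at -0.10. The ratio of LARS2 to LARS1 reads was 1.45, 1.64 and 0.804 in the overexpression libraries, against 0.557, 0.866 and 0.376 in the controls. These ratios overlapped between groups, and the third library was the lowest in each (exact permutation test, two-sided, p = 0.2). EARS2 over EPRS1 was similar in form, at 0.852, 1.24 and 0.440 with VIM-AS1 and 0.384, 0.592 and 0.254 in the controls (exact permutation test, two-sided, p = 0.2). The tests on ratios hold no third-library term and do not pair libraries by number. In the tryptophan pair the order was the other way, with WARS1 at 0.87 and WARS2 at 0.21.

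The ratio of mitochondrial to cytosolic reads lay wholly higher with VIM-AS1 for AARS2 over AARS1 (0.149, 0.154 and 0.134, against 0.126, 0.0973 and 0.1005 in the controls) and for CARS2 over CARS1 (2.53, 2.64 and 1.96, against 1.73, 1.67 and 1.56 in the controls). It lay wholly lower for IARS2 over IARS1 (0.886, 0.849 and 0.923, against 1.21, 1.08 and 1.26 in the controls) and for VARS2 over VARS1. With 3 against 3 the exact permutation p was 0.1 in these 4 pairs, the smallest possible, and 0.356 after adjustment over the 16 pairs, so no pair passed. On the same strand, GTF2H4 shares 21.99% of the exon bases of VARS2, so the counts of VARS2 are uncertain. Per kilobase of exon the mitochondrial enzyme was below its cytosolic partner in every library in 10 of the 16 pairs.

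**Figure D4:**
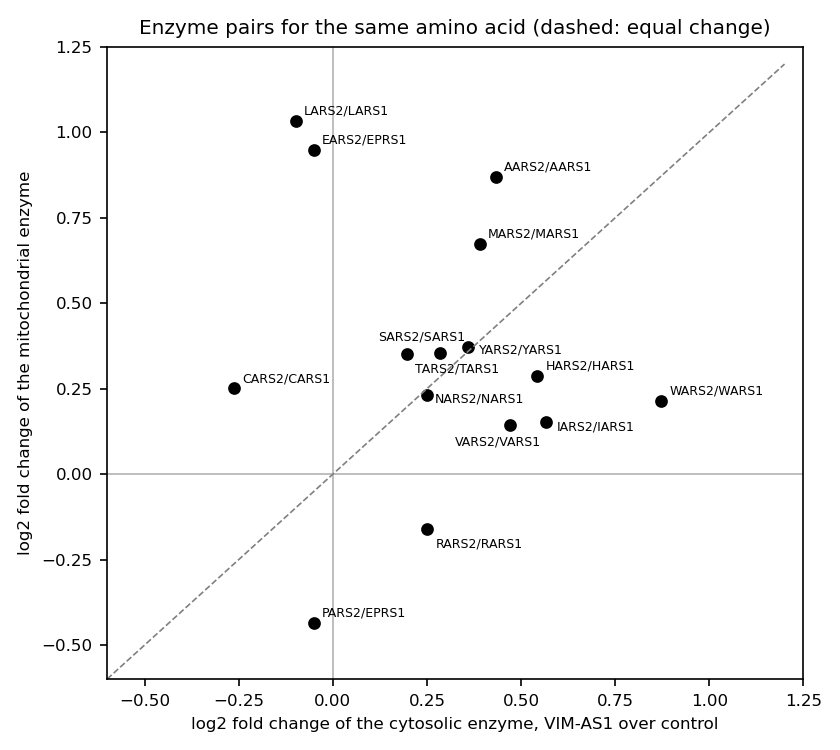
Log2 fold change of the mitochondrial enzyme (y axis) against that of the cytosolic enzyme for the same amino acid (x axis), VIM-AS1 overexpression over control, for 15 of the 16 pairs. Points above the dashed line of equal change are pairs with the higher value in the mitochondrial enzyme, among them LARS2 with LARS1 (1.03 and -0.10); WARS2 with WARS1 (0.21 and 0.87) lies below it.

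Levels differed widely between the genes. Per kilobase of merged exons, a scale on which long rare exons lower a gene, FARSA had the highest mean level of the cytosolic enzymes, with 2609 normalized reads per kb in the overexpression group and 1871 in the control. QARS1 followed with 1456 in the overexpression group and 1422 in the control, and VARS1 with 1518 with VIM-AS1 and 1098 in the control. CARS1 was the lowest cytosolic enzyme, at 83.1 with VIM-AS1 and 100.4 in the control. Among the mitochondrial enzymes IARS2 (429.6 with VIM-AS1 and 386 in the control) and TARS2 (426 with VIM-AS1 and 336 in the control) were highest and SARS2 (21.5 with VIM-AS1 and 18.8 in the control) lowest. Neighbours in this order, such as IARS2 and TARS2 or QARS1 and VARS1, changed places between libraries.

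The third libraries differed from the first and second in opposite directions for different genes. Relative to the mean of the first and second libraries, the log2 value of NARS1 in the third was higher by 0.94 in the VIM-AS1 group and by 0.97 in the control group, and that of TARS1 by 0.88 in the VIM-AS1 group and 0.84 in the control group. FARSA had -0.80 in the VIM-AS1 group and -0.95 in the control group, and VARS1 had -0.71 in the VIM-AS1 group and -0.62 in the control group. Over the 40 genes this difference followed the GC content of the longest transcript (Spearman rho -0.86 in the VIM-AS1 group and -0.88 in the control group, across genes that share these libraries). The fold change itself had a rho of 0.34 with GC content over the 40 genes, against 0.0036 over 20915 tested genes. The 9 cytosolic enzymes that rose had a median GC content of 53.5% and the 11 that did not pass one of 43.6%. After removal of each library's trends with GC content and length 10 cytosolic enzymes were called higher and 1, CARS1, lower, and 6 mitochondrial enzymes were called higher, while 15.1% of all tested genes were called higher and 6.84% lower.

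**Figure D5:**
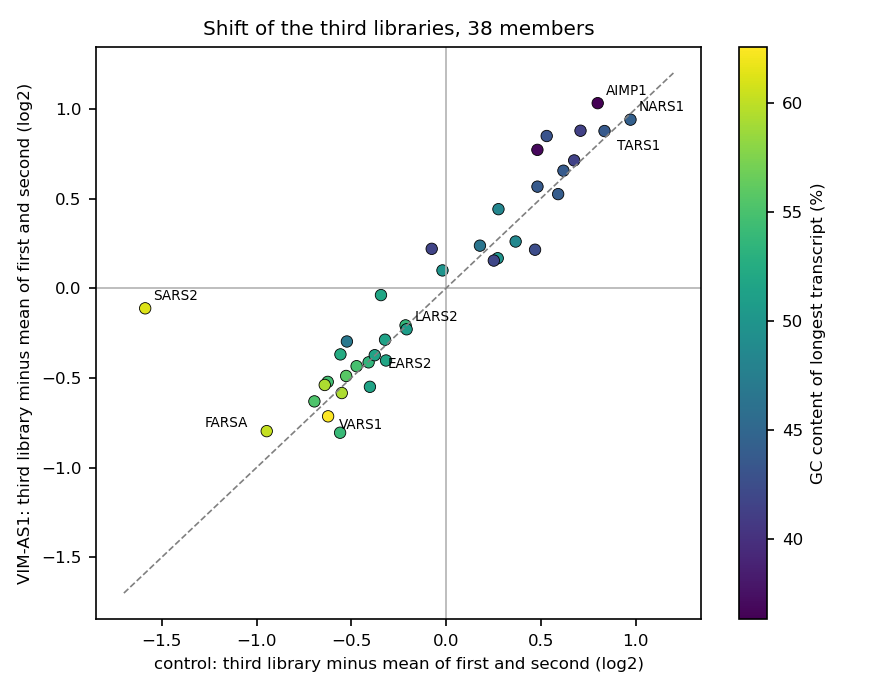
Log2 value of the third library minus the mean of the first and second, in the VIM-AS1 group (y axis) against the control group (x axis), for 38 of the 40 genes; colour gives the GC content of the longest transcript in percent. Genes lie near the dashed line of equal shift, with GC-rich FARSA at the lower left and NARS1 at the upper right, and SARS2 stands away from it at -0.11 in the VIM-AS1 group and -1.59 in the control group.

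Of the 6 cytosolic genes with TGATGCAA letters in the windows shown above, IARS1, AARS1 and MARS1 rose, and NARS1 (0.25), TARS1 (0.20) and CARS1 (-0.26) did not pass. GARS1, with the looser match, stood at 0.06, and YARS2, the mitochondrial gene with the looser match, rose. WARS1, HARS1, FARSA and KARS1 rose with neither form in their windows. Genes linked to ATF4 in textbooks moved in both directions: of 29 tested, 5 rose (17.2%) and 5 fell (17.2%), with a median of 0.11. The share that rose lay between those over all tested genes (11.5%) and over genes within the synthetases' range of mean (21.2%), and the share that fell stood beside 7.94% and 9.8% over the same sets. For these genes 9 were called higher and 8 lower with the replicate block. Those that rose in the fit with the term were the serine enzyme gene PSAT1 (log2 fold change 0.40), the cationic amino acid transporter SLC7A1 (0.45), PPP1R15A, which directs dephosphorylation of eIF2 (0.32), and PYCR1 (0.38) and ALDH18A1 (0.36) of proline synthesis. CHAC1, which degrades glutathione, fell, with 68.5, 75.4 and 44.0 normalized reads in the overexpression libraries, against 253, 294 and 193 in the controls (-1.98). DDIT3 (-0.77), CTH (-0.47), NUPR1 (-0.39) and CEBPB (-0.33) also fell, and ATF4 mRNA stood at -0.24 (limma with the term, adjusted p = 0.124; called lower with the replicate block, adjusted p = 0.0248). DDIT3 lies opposite MARS1, and 5.05% of the exon bases of MARS1 are also exon of DDIT3.

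Of the 4 genes tested on amino acid sensing and its kinases, GCN1, which activates the kinase GCN2 on stalled ribosomes, rose (7794, 9023 and 5581 normalized reads with VIM-AS1 against 4384, 5834 and 3380 in the controls, log2 fold change 0.73 ± 0.12 SE, limma with the term, adjusted p = 0.000263). EIF2S1, the subunit of eIF2 that the kinases phosphorylate, rose as well (0.64). EIF2AK4, which encodes GCN2, stood at 0.11 and EIF2AK3 at 0.17. Thus 2 of these 4 genes rose (50%), against 11.5% of all tested genes and 21.2% within the synthetases' range of mean. Of 21 tested partners of charged tRNA 4 rose (19.0%, against 11.5% of all tested genes and 21.2% within the synthetases' range of mean, a share near the background) and none fell. With the replicate block 6 were called higher, XPOT and EEF1D in addition. They were EEF1B2, an exchange factor of elongation factor 1 (0.47), GATC of the mitochondrial amidotransferase that completes glutamine tRNA (0.38), the mitochondrial elongation factor GFM1 (0.37) and DTD1, which removes D-amino acids from tRNA (0.43). The other amidotransferase genes GATB (0.01) and QRSL1 (-0.02), the mitochondrial elongation factor TUFM (0.13), the exporter of tRNA XPOT (0.24, adjusted p = 0.118 with the term and 0.0262 with the block) and the elongation factors EEF1A1 (0.05) and EEF1A2 (-0.09) did not pass. The median of these partners was 0.08.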

How the data were processed

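RNA libraries of 6 samples were grouped by their titles, 3 per group. The submitters' processing notes name fastp, HISAT2, featureCounts and the build hg38, without versions. Not given in the sources used here: annotation, strand handling and normalization step. The deposited values are a signal per gene, namely counts divided by 1 factor per library: 100% were whole multiples of 1 step within 0.01 read, giving 14762893 to 19889745 reads per library, where a count of 0 allows up to 3 reads (0.151 to 0.203 CPM; counting error only).

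From these, limma 3.58.1 (R 4.3.3) was fitted on log2(value + 1), with intensity trend, for 20927 genes with a mean of at least 1, two-sided, with Benjamini-Hochberg adjustment over all of them, without and with a term for the third libraries. edgeR 4.0.16 and DESeq2 1.42.0 ran on the recovered reads as alternatives. Other alternatives were TMM and library size scaling, 2 other filters, a pseudocount of 0.1, a replicate block, a GC and length correction, the first and second libraries alone, and each library left out. The limma fits without and with the term, and edgeR and DESeq2 with it, were also run on simulated counts. In those counts the third libraries shifted alike in both groups, without a trend in GC content. The other alternatives were not run on simulated counts. Symbols, exon lengths and GC came from GENCODE 29 on GRCh38, promoter windows from RefSeq. Same-numbered libraries deviated together over 13175 genes (Pearson r = 0.32, 0.72 and 0.84 for numbers 1 to 3), but VIM-AS1 replicate 1 correlated more with control replicate 2 (0.42), so number 1 does not single out its pair, and the labels state no pairing. Deviations from a group mean cancel out within the group. The correlations are thus not independent of each other or of the shift of the third libraries. Block values stand beside the results whose calls they change.

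Values per library are given for members called with groups that do not overlap and for the leading members of each class, and FARSB, HARS2, PARS2, SARS2 and the paired enzymes were added after their values were seen. Some genes that enter the counts are not reported here by name. Members, lists, the third-library term and tests were chosen with earlier results of these data known.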

Additional observations from a re-analysis of the deposited data

How the results depend on the processing

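Over the members, edgeR, TMM scaling, the absence of a filter and the filter of at least 10 reads left the counts with the third-library term at 9 cytosolic and, except for 8 under the read filter, 7 mitochondrial genes higher. Library size scaling and DESeq2 gave 9 and 5. The cause of the changes below was not tested, except that settings with fewer libraries hold fewer samples by construction (without a library numbered 3, the term absorbs the other one, so 2 libraries are set against 2). Without the term, 3 members were called by DESeq2 and 3 in the first and second libraries alone, and 25 with the replicate block. Leaving out 1 library gave 0 members there. With the term, cytosolic genes called higher numbered 0 to 11 when 1 library was left out, 0 in the first and second libraries alone; mitochondrial genes called higher numbered 3 to 8, and 3 in the first and second libraries alone. Cytosolic genes called lower were 1 under the GC and length correction and 1 with the replicate block. Mitochondrial genes called lower were 0 to 1 when 1 library was left out and 1 with the block. Over all tested genes the 4065 calls became 236 to 4338 when 1 library was left out, 336 in the first and second libraries alone and 5571 with the block; the 5 calls without the term became 1 to 6, 28 with library size scaling, 17 with no filter and 353 by DESeq2. Signs reversed for 5 members that were not called. With 1 library left out, the log2 fold change ranged over -0.18 to 0.022 for AIMP1, -0.16 to 0.10 for EPRS1, -0.034 to 0.14 for QARS1, -0.35 to 0.0085 for RARS2 and -0.14 to 0.60 for SARS2. AIMP1 was at 0.087 under the GC and length correction, QARS1 at -0.016 with library size scaling and SARS2 at -0.14 in the first and second libraries alone. EEF1E1 and RARS1 were called higher under the GC and length correction (0.75 and 0.33). Under the scaling and correction alternatives the median log2 fold change of all tested genes lay between -0.083 (library size scaling) and 0.056 (GC and length correction).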
